A study of Mus musculus with 7 samples.

Results

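The chemokine ligand genes of the mouse epidermis after bone marrow transplant (BMT) were taken as every gene whose symbol is Ccl, Cxcl, Xcl or Cx3cl with a number and that was listed in at least 1 of the 3 deposited expression tables, other than Ccl17 and Ccl22. This rule used names only and gave 32 genes of 31907 listed in all. The table of donor cells lists 15 of them, the table of keratinocytes 31 and the table of host cells 25, and 12 genes are in all 3. Of the 32, 14 reached a mean of 1 UMI (unique molecular identifier, 1 captured transcript) per 10000 UMIs in at least 1 annotated cluster with 20 or more cells; the others are given as counts and ranges.

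Lethally irradiated male CD45.2 C57BL/6 hosts received bone marrow from female CD45.1 C57BL/6 donors, and ear epidermis was sorted 3 weeks later for droplet single-cell RNA sequencing with the 10x 5′ kit. Donor CD11b+MHCII+ cells, which the study describes as monocyte-derived, made 4 libraries: 3 carry the treatment label BMT (BMT replicates 1, 2 and 3) and 1 the label BMT plus T-cells (BMT + T cells). Host CD45neg keratinocytes made 1 library under each label, and host CD11b+MHCII+ cells made 1 library labelled BMT. The T cells given were CD4 cells and CD8 Matahari cells, the latter specific for a male antigen; the series describes them for the transplant as a whole, so the comparisons here are between labels. The study's text places both its donor cells and its keratinocytes after transplant with T cells, so the label BMT cannot be read as a transplant that lacked them. It describes the donor data as combined from separate sorting and sequencing experiments on pooled mice, and in one experiment keratinocytes and CD11b+MHCII+ cells came from the same epidermis; which library belongs to which experiment is not stated in the sources used here. In the comparisons of clusters, which take the library as a block, p-values measure the spread left once library and cluster are fitted. In the comparison of labels they measure the spread between libraries. So either spread may be technical. The short names of the donor libraries fall into a pair (BMT replicates 1 and 2) and another pair (BMT replicate 3 and BMT + T cells); no label says what a pair is.

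Chemokines are small secreted proteins that bind receptors on leukocytes and direct where these cells move. Inflammatory chemokines are made by monocytes, macrophages and epithelium after cytokine or microbial signals, whereas homeostatic ones, such as Cxcl14 and Ccl27a in skin, are made by keratinocytes at rest. Langerhans cells are the antigen-presenting phagocytes of the epidermis; when the embryonic network is lost, monocytes can enter and become monocyte-derived Langerhans cells (mLCs).

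Donor libraries held 2572, 8382, 226 and 719 cells (BMT replicates 1, 2 and 3, then BMT + T cells), with a median depth between 7021.5 and 13387 UMIs per cell. Keratinocyte libraries held 2836 and 2590 cells at medians of 8895.5 and 8834 UMIs, and the host library 781 cells at 4376 UMIs. Between 0 and 7 cell barcodes were shared by any pair of libraries. The authors' cluster names matched their markers: summed levels of Cd207, Epcam and Mfge8 were 59.9 to 85.6 UMIs per 10000 in resident mLCs and 0.416 to 1.55 in Mono (classical monocytes), those of Mrc1, Arg1 and Ms4a7 were 17.8 to 34.4 in Mrc1+ macrophages but also 11.4 to 54.7 in Hmox1+ monocytes, and those of Plac8, Ly6c2 and Lyz2 were 86.8 to 184 in Mono and 1.47 to 1.97 in resident mLCs. In the host library 331 of 781 cells lie outside the study's stated cell filter. Summed markers of neutrophils were 4.03 UMIs per 10000 in BMT replicate 2 against 0.778 to 0.893 in the other donor libraries, and markers of T cells were 0.0464 to 0.0758 in every donor library.

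Sequence before a transcript start of 3 of the genes named as leads for this set is shown, to give the neighbourhood of that start. Windows are the 250 bases before a transcript start in the RefSeq promoter table on GRCm38.p6, on the gene's strand, 5′ to 3′, with capitals for motif matches; such windows were found for 22 of the 32 genes, and none for Ccl24.
Cxcl9: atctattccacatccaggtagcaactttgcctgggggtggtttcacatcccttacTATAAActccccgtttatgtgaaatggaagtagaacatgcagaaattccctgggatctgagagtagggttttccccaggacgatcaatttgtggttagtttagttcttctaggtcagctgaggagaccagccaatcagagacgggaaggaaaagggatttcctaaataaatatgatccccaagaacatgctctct
Ccl8: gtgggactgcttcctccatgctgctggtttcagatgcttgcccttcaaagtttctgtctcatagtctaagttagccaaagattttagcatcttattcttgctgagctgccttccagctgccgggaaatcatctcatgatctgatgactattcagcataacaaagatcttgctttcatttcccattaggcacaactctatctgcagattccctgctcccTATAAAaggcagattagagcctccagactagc
Cxcl14: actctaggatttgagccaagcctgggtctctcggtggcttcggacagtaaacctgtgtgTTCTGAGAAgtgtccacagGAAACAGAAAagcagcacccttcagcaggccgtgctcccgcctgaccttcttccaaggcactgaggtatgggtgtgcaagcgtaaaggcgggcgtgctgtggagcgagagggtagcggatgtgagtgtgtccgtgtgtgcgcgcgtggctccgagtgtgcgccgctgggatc
The Cxcl9 window is chr5:92328080-92328329 on the minus strand, and its capitals mark TATAAA beginning 195 bases before the start. The Ccl8 window is chr11:82114935-82115184 on the plus strand, with TATAAA beginning 32 bases before the start. The windows of Cxcl9 and Ccl8 abut the gene. The Cxcl14 window is chr13:56296552-56296801 on the minus strand and lies inside the gene's annotated span (chr13:56288643-56296811), since the transcript start used is not the outermost one; its capitals mark TTCTGAGAA, a match to TTCNNNGAA (the GAS element bound by STAT dimers), 191 bases before the start, and GAAACAGAAA, a match on the other strand to TTTC and TTTC with 2 bases between (a core of the interferon-stimulated response element), 172 bases before it. Both strands were searched. TATAAA was in the windows of 9 of the 22 genes (40.9%) against 14.3% of 27025 genes with a window, and the NF-kappaB core (GGGA and TTCC with 2 bases between) in 5 of 22 (22.7%, Ccl1, Cxcl1, Cxcl2, Cxcl3 and Cxcl10) against 1.36%. TTCNNNGAA was in 1 of 22 against 8.13%, the interferon-response core in 3 of 22 (Ccl19, Cxcl10 and Cxcl14) against 3.46%, and the STAT6 form (TTC and GAA with 4 bases between) in 0 of 22 against 6.76%. Members and background alike count a gene once, if any of its windows matched. The matches in the 3 windows shown do not overlap each other. A match is a description of letters and not a bound site.

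In donor myeloid cells the inflammatory ligands were highest in Mono, ISG monocytes and Mrc1+ macrophages or in the smaller S100a+ and Hmox1+ monocytes. For Ccl5 migrating mLCs were also among the highest. The cluster MC, described below, and migrating mLCs also held Cxcl9 (means over libraries of 7.40 and 8.49) and Ccl24 (8.67 and 7.32). Levels of the inflammatory ligands were low in resident mLCs. Of the 15 members in the donor table, 10 reached 1 UMI per 10000 in a cluster of at least 20 cells: Cxcl9, Ccl8, Ccl7, Ccl12, Ccl24, Ccl3, Ccl4, Ccl9, Ccl5 and Cxcl16. The other 5 stayed low, with cluster means of at most 0.124 for Ccl1, 0.0994 for Ccl25, 0.223 for Ccl27a, 0.00107 for Ccl28 and 0.158 for Cx3cl1. Cxcl14, Ccl2, Ccl6 and Cxcl10 were not analysed here in donor cells, because that table does not list them. Summed over the 15 members, the mean level was 48.2, 61.4, 40.2 and 19.7 UMIs per 10000 over all cells of BMT replicates 1, 2 and 3 and BMT + T cells, and 8.45, 13.7, 5.09 and 6.93 in resident mLCs alone. All donor levels below are means over cells in UMIs per 10000, in that order of libraries unless named, and clusters of fewer than 20 cells are left out.

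**Figure D1:**
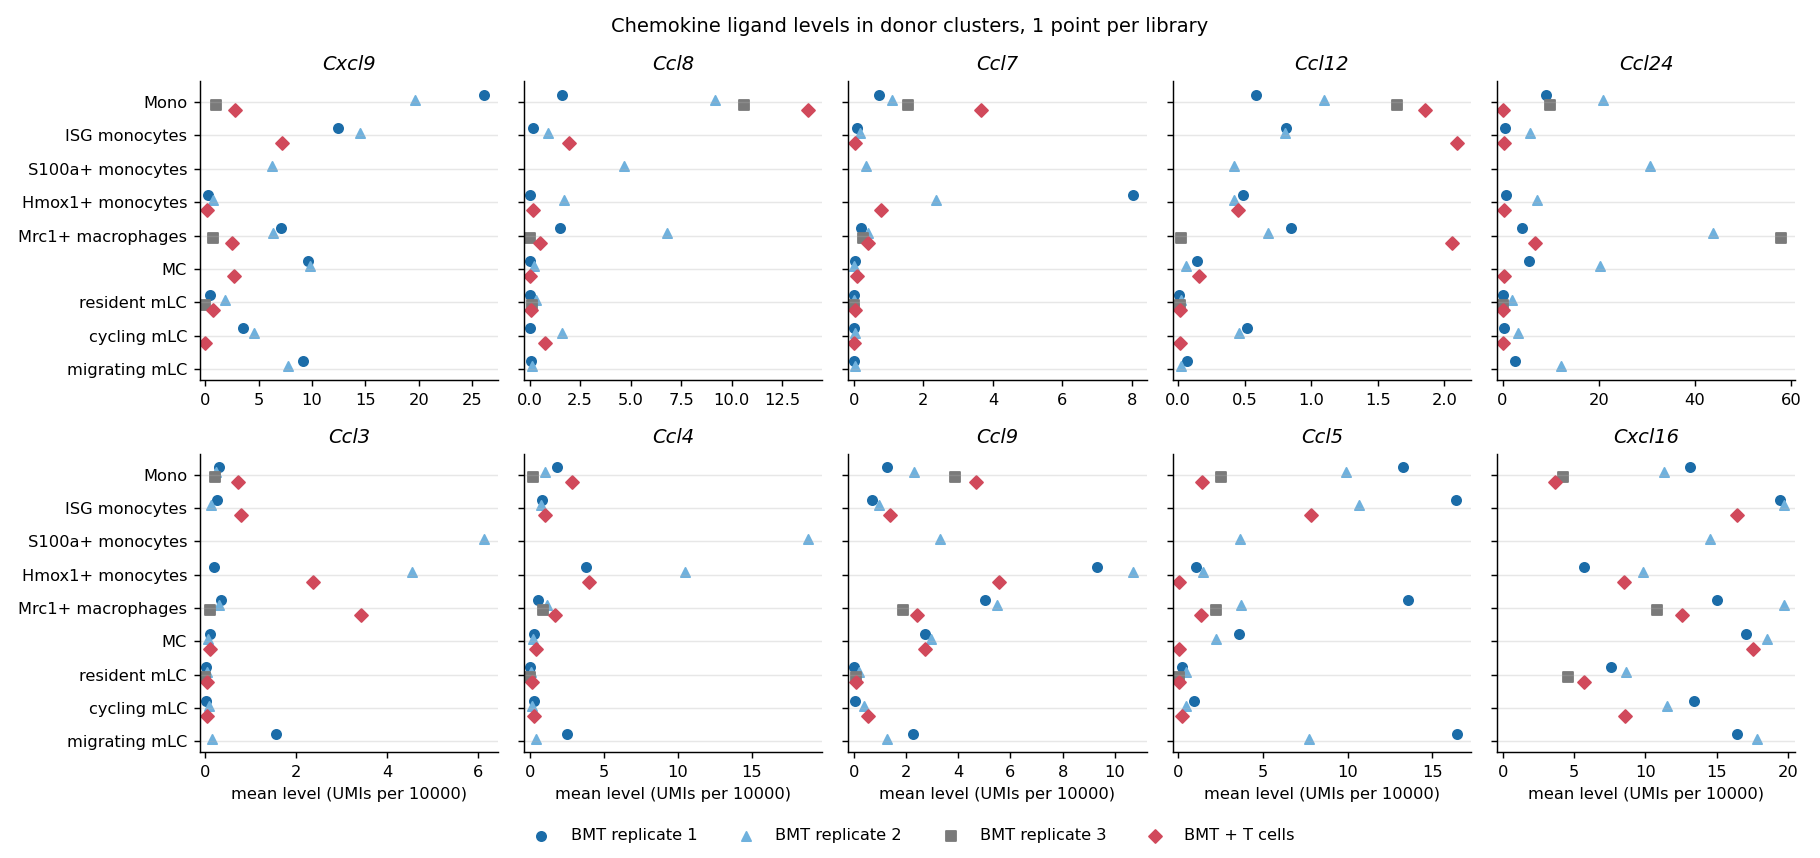
Mean level in UMIs per 10000 (x axis, a scale of its own for each gene) of the 10 ligands that reached 1 in donor cells, by annotated cluster (y axis), with 1 point per library and cluster of at least 20 cells. Cxcl9 in Mono lies at 26.1 and 19.6 in BMT replicates 1 and 2 and at 0.975 and 2.76 in the other libraries, and every ligand other than Cxcl16 is at or below 1.98 in resident mLCs.

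Cxcl9, an interferon-gamma-induced ligand of Cxcr3 that draws activated T cells, lies at chr5:92321331-92328079. In Mono its level was 26.1, 19.6, 0.975 and 2.76. BMT replicates 1 and 2 were thus high and BMT replicate 3 and BMT + T cells low, with no overlap between the pairs of names and with a BMT library in each. The same split was seen in Mrc1+ macrophages (7.09, 6.36, 0.706 and 2.46). ISG monocytes, a cluster named for interferon-stimulated genes, held 12.4 and 14.5 in BMT replicates 1 and 2 and 7.23 in BMT + T cells. In MC, the cluster marked by Mgl2, Itgax and Dcstamp, the levels in those 3 libraries were 9.66, 9.86 and 2.68. Migrating mLCs held 7.80 to 9.18 over BMT replicates 1 and 2. Resident mLCs were lower (0.482, 1.81, 0.00778 and 0.685). Over all cells, 61.7%, 48.2%, 11.1% and 10.6% had a Cxcl9 UMI, and 44.4%, 34.9%, 7.82% and 6.81% once each cell was thinned to 2000 UMIs. In resident mLCs, a cluster of low level, the unthinned shares were 13.3%, 21.9%, 1.96% and 3.75%; the part of free RNA in these shares was not tested. Cxcr3, the receptor, was at 0.006 to 0.044 over all donor cells.

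Ccl8, Ccl7 and Ccl12 are chemokines encoded near each other on chromosome 11, with Ccr2 as a main receptor of Ccl7 and Ccl12. Ccl8 (chr11:82115185-82116799) was at 1.60, 9.18, 10.6 and 13.8 in Mono, and 1 cell held 89.1% of its UMIs in BMT replicate 1. In Mrc1+ macrophages it was at 1.49, 6.82, 0 and 0.513, and in ISG monocytes at 0.159, 0.915 and 1.94 in BMT replicates 1 and 2 and BMT + T cells. Mono was the higher of the 3 clusters in every library that had them. Ccl7 was at 0.716, 1.09, 1.56 and 3.65 in Mono and at 0.098, 0.173 and 0.020 in ISG monocytes of BMT replicates 1 and 2 and BMT + T cells. Its highest value, 8.02, was in the Hmox1+ monocytes of BMT replicate 1, where 1 of 24 cells held 74.2% of the UMIs. Ccl12 was at 0.584, 1.10, 1.65 and 1.86 in Mono, and its ranges over libraries in Mono, ISG monocytes and Mrc1+ macrophages overlapped.

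Ccl24 (eotaxin-2, a Ccr3 ligand that attracts eosinophils, made by alternatively activated macrophages) lies at chr5:135569935-135573123. In Mrc1+ macrophages its level was 3.96, 43.7, 57.9 and 6.67, so replicates of 1 label differed by more than the labels. The value of BMT replicate 3 rests on 45 cells of a median depth of 2214 UMIs, with 39.0% of the UMIs in 1 cell, and that of BMT + T cells on 73 cells with 71.9% of the UMIs in 1 cell. Mono held 9.04, 20.8, 9.82 and 0.191, and the S100a+ monocytes, which had 20 cells only in BMT replicate 2, held 30.7. That cluster also held markers of neutrophils (Csf3r, Retnlg, Ly6g and Mmp9, 0 of 4 at 0) at a sum of 49.9, against 0.132 to 1.03 in the other clusters of that library; their part in its ligand values was not tested. MC held 0.367 to 20.3 over 3 libraries, and migrating mLCs 2.58 to 12.1 over 2. Resident mLCs held 0.0284, 1.98, 0.0307 and 0.00173. In BMT replicate 2 that is a UMI in 29.0% of resident cells beside 71.3% of Mrc1+ macrophages. In host keratinocytes, sorted as separate libraries, 0 Ccl24 UMIs were counted in either.

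Ccl3, Ccl4, Ccl5 and Ccl9 are inflammatory chemokines that attract monocytes and T cells. Ccl3 and Ccl4 overlap on chromosome 11 in the annotation, so their split is uncertain. Ccl4 was highest in the S100a+ monocytes of BMT replicate 2 (18.8) and in Hmox1+ monocytes (3.79, 10.5 and 3.98 in BMT replicates 1 and 2 and BMT + T cells), while Mono held 1.87, 1.04, 0.243 and 2.86. Ccl3 was at 0.294, 0.226, 0.207 and 0.724 in Mono and at 0.348, 0.307, 0.109 and 3.43 in Mrc1+ macrophages; the last had 50.5% of its UMIs in 1 cell. BMT + T cells was thus the highest of the 4 libraries for Ccl3 and Ccl4 in both clusters.

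Ccl9 was led by Hmox1+ monocytes (9.30, 10.7 and 5.55). Mrc1+ macrophages followed at 5.01, 5.50, 1.88 and 2.41, all below the lowest Hmox1+ library. Mono held 1.26, 2.29, 3.87 and 4.68 of it and resident mLCs 0.00944, 0.206, 0.0734 and 0.0739. Ccl5 (RANTES, an attractant of T cells and monocytes) was at 13.3, 9.89, 2.52 and 1.38 in Mono and at 13.6, 3.73, 2.22 and 1.32 in Mrc1+ macrophages. ISG monocytes held 16.4 and 10.7 in BMT replicates 1 and 2 and 7.85 in BMT + T cells, and migrating mLCs, marked by Ccr7, held 16.5 and 7.72 in BMT replicates 1 and 2. Like Cxcl9, Ccl5 was higher in BMT replicates 1 and 2 than in the other pair in Mono and Mrc1+ macrophages.

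Cxcl16, a membrane-bound chemokine for Cxcr6 that also takes up oxidised lipids, was the ligand found in most cells: 94.6% of donor cells had a UMI. Its level was 13.1, 11.3, 4.21 and 3.68 in Mono, 15.0, 19.7, 10.8 and 12.6 in Mrc1+ macrophages, and 7.60, 8.63, 4.56 and 5.70 in resident mLCs. It was the only one of the 10 to stay above 4 in resident mLCs of every library. ISG monocytes held 19.5, 19.7 and 16.4 in the 3 libraries that had enough of them. With the clusters of each of these 10 genes put in order of mean level, the ranges over libraries overlapped in 66 of 80 pairs of neighbours; the order of those neighbours is not resolved. Of the 14 pairs that did not overlap, 4 were of Ccl4 and 3 of Ccl9; 6 of the 14 set another cluster beside the S100a+ monocytes, which have 1 library and so no range of their own.

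Differences between clusters were then tested on library means, with a gene called when its level changed more than 4-fold (log2 above 2) at an adjusted p under 0.05 in limma (Benjamini-Hochberg over 7267 genes, library as a block). The authors drew the clusters from these same values, so a call describes their annotation and is no independent evidence. ISG monocytes and Mrc1+ macrophages were each compared with Mono, and resident mLCs with Mrc1+ macrophages. Of the 15 listed members 10 passed the filter on low values, a mean of 0.1 over all donor clusters. A member low in one cluster passed it through the clusters where it was high, so counts and medians over these 10 describe them and support nothing about a direction.

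In ISG monocytes against Mono, 1 of 10 members was called lower and 0 higher, beside 0.193% of all genes called lower. That gene was Ccl7, which fell by 3.09 on the log2 scale (SE 0.54, limma adjusted p = 0.00191, lower in 3 of 3 libraries). Without BMT replicate 2 its difference was -3.51 with an adjusted p of 0.0881 in limma. With a pseudocount of 1, Ccl7 was at -1.23 (limma adjusted p = 0.133) and not called, while Ccl8 was called at -2.22 (limma adjusted p = 0.0335). Over all alternatives the limma adjusted p of Ccl7 ran from 0.000502 to 0.176. Cxcl16 was 1.22 higher on that scale (SE 0.24, limma adjusted p = 0.00371, 3 of 3 libraries), short of the fold required. For Ccl8 the log2 difference was -3.37 (limma adjusted p = 0.124). Cxcl9 did not pass, with a difference of 0.04 and an SE of 0.71. The median difference was -0.46 for the 10 members and -0.02 for all genes.

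In Mrc1+ macrophages against Mono, 0 of 10 members were called in limma, beside 0.413% of all genes called in either direction. At an unadjusted p under 0.05 there were 4 of 10 members, beside 23.1% of all genes. Cxcl16 was 1.02 higher on the log2 scale (SE 0.21, limma adjusted p = 0.00345, 4 of 4 libraries) and Ccl7 had a difference of -1.92 (SE 0.49, limma adjusted p = 0.0175, 4 of 4), both under the fold required. Without BMT replicate 1 the count became 1. Ccl8 had a difference of -2.94 (limma adjusted p = 0.0651) and Ccl24 of 1.75 (limma adjusted p = 0.175, higher in 3 of 4 libraries). Neither of these 2 passed the adjusted threshold.

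Resident mLCs against Mrc1+ macrophages was the comparison with most calls. Here 7 of 10 members were called lower and 0 higher, beside 2.46% of all genes called lower, and the median difference was -2.51 for members and 0.12 for all genes. The filter bears on this count, as said above. Without it all 15 listed members entered, of which the same number, 7, were called lower and 0 higher, beside 1.18% of 15145 genes called lower. Of the 5 added members 0 were called, and Ccl27a, the keratinocyte ligand, had a difference of 0.53 (SE 0.24, limma adjusted p = 0.148); its level in resident mLCs was 0.0185, 0.0768, 0.223 and 0.0913. Ccl24 fell by 6.06 on the log2 scale (SE 0.75, limma adjusted p = 9.46e-06), Ccl9 fell by 4.28 (SE 0.45, limma adjusted p = 5.07e-07) and Ccl5 fell by 3.92 (SE 0.48, limma adjusted p = 4.49e-06), each in 4 of 4 libraries. The calls with smaller differences were Ccl4 (-2.75), Ccl12 (-2.53), Cxcl9 (-2.50) and Ccl3 (-2.33), with limma adjusted p values between 0.000164 and 0.0213. Cxcl16 had a difference of -1.13 (limma adjusted p = 0.000217) and Ccl7 of -1.97 (limma adjusted p = 0.00365), both under the fold required; Ccl8 had -2.21 (limma adjusted p = 0.0818). Leaving out 1 library gave 5 to 8 calls: Ccl12 was lost without BMT replicate 1, without BMT replicate 2 and without BMT + T cells, Cxcl9 without BMT replicate 1 or 2, and Ccl3 without BMT + T cells.

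**Figure D2:**
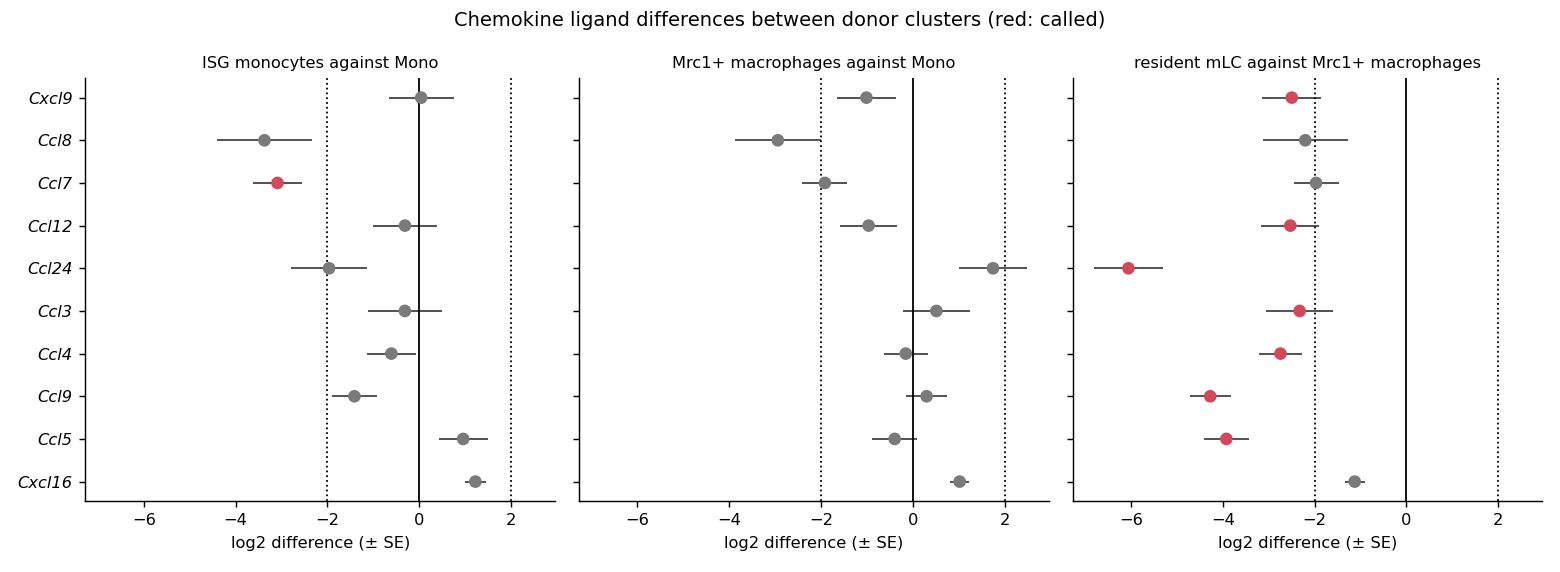
Log2 difference in level (x axis, points with SE bars) of 10 ligands (y axis) in 3 comparisons of donor clusters, with red for genes called at an absolute log2 difference above 2 (dotted lines) and a limma adjusted p under 0.05. The 10 ligands are those above the filter on low values; 7 are red in resident mLCs against Mrc1+ macrophages, 1 is red in ISG monocytes against Mono and 0 are red in Mrc1+ macrophages against Mono.

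The label BMT + T cells was compared with BMT over the 3 clusters with at least 20 cells in all 4 donor libraries (Mono, Mrc1+ macrophages and resident mLCs), weighted equally, with a call at more than 2-fold and an adjusted p under 0.05. Only 1 library carries the T cell label, and it is assumed to vary like the other 3. Of 7345 genes 0% were called by limma, and 0 of the 10 members; at an unadjusted p under 0.05 there were 5 of 10 members, beside 4.79% of all genes. These 5 were Ccl3 (log2 difference 1.62, SE 0.31), Ccl4 (1.15, SE 0.38), Ccl12 (1.03, SE 0.33), Ccl7 (0.77, SE 0.30) and Ccl24 (-2.93, SE 1.10), with limma adjusted p values of 0.885 to 0.949. Ccl3, Ccl4, Ccl12 and Ccl7 were above, and Ccl24 below, 3 of 3 BMT libraries. Ccl5 had a difference of -1.67 (SE 0.84) and Cxcl9 of -0.41 (SE 1.76).

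Within the pair of names, against BMT replicate 3 alone and without a test, the log2 differences were 1.98 for Cxcl9, 1.97 for Ccl3, 1.72 for Ccl4, 1.44 for Ccl12, 0.91 for Ccl8, 0.63 for Ccl7, 0.20 for Ccl9, 0.11 for Cxcl16, -0.42 for Ccl5 and -2.85 for Ccl24. Here 5 of 10 members were past 2-fold, beside 2.03% of all genes (149 of 7345). Cxcl9 changed sign between the comparisons. Without BMT replicate 3, in limma, 3 members were called (Ccl3 at 1.44, Ccl5 at -2.30 and Cxcl9 at -1.61), beside 2.79% of 7253 genes called. In the BMT libraries the pair of names and the other differences between libraries cannot be told apart.

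**Figure D3:**
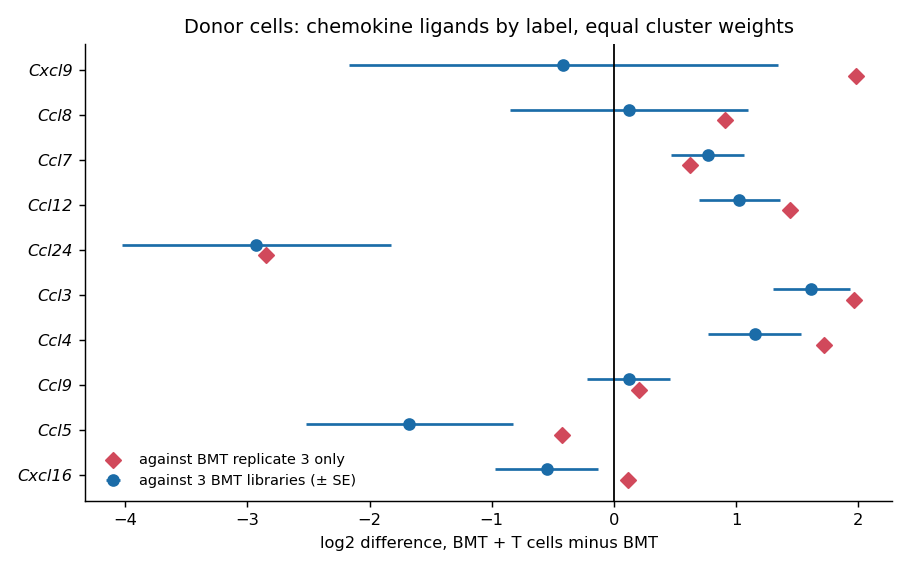
Log2 difference (x axis) between the BMT + T cells library and the BMT libraries for 10 ligands (y axis), with circles for the difference from all 3 BMT libraries with SE bars and diamonds for that from BMT replicate 3 alone. Cxcl9 moves from -0.41 to 1.98 between them, while Ccl3, Ccl4 and Ccl12 lie above 0 and Ccl24 below 0 in both.

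The receptors that read these ligands were followed as a fixed list of 23 genes, 17 of them in the donor table. In donor cells 6 reached 1 UMI per 10000 in a cluster: Ccr1, Ccr2, Ccr7, Ccrl2, Cxcr2 and Cxcr4. Ccr2, the receptor by which monocytes leave marrow and enter tissue, was at 1.02, 0.984, 2.25 and 2.39 in Mono and at 0.025, 0.0316, 0 and 0.0620 in resident mLCs. Of 8 receptors tested in each cluster comparison, limma called 0 in ISG monocytes against Mono (1 at an unadjusted p under 0.05, beside 10.6% of all genes). In Mrc1+ macrophages against Mono it called 0 (2 at an unadjusted p under 0.05, beside 23.1% of all genes). In resident mLCs against Mrc1+ macrophages it called 1 lower, beside 2.46% of all genes. There 5 of 8 had a limma adjusted p under 0.05, beside 2292 of 7267 genes. The receptor called was Cxcr4, the Cxcl12 receptor, which fell by 2.68 on the log2 scale (SE 0.29, limma adjusted p = 1.13e-07, 4 of 4 libraries). Its level was 1.02, 1.37, 1.96 and 0.80 in Mrc1+ macrophages and 0.083, 0.148, 0.144 and 0.062 in resident mLCs. By label, 0 of 6 receptors were called by limma, beside 0% of all genes. At an unadjusted p under 0.05 there was 1 (Cxcr4, -0.94), beside 4.79% of all genes.

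Keratinocytes held a different and shorter set. Of the 31 members in their table, 3 reached 1 UMI per 10000 in a cluster (Cxcl14, Ccl27a and Cxcl9). Cxcl9 did so only in KC_Four of BMT + T cells. Another 4 had no UMI in either library (Xcl1, Ccl6, Ccl24 and Cxcl13). A fixed floor of 3 UMIs per library was taken for a count of 0. The upper limit of its exact 95% Poisson interval was 0.00133 UMIs per 10000 in BMT and 0.00148 in BMT + T cells. With 1 library per label there is no test, and the Poisson intervals (95%) cover counting error only. Of the 5 members above the filter, 1 was past 2-fold higher in BMT + T cells, beside 0.31% of 7751 genes, and 0 were past 2-fold lower, beside 0.0774%. Within clusters, 1 to 2 members were past 2-fold higher and 0 to 2 lower, beside 0.177% to 0.394% and 0.0522% to 0.225% of the genes of a cluster. Past 2-fold lower were Cxcl14 and Ccl5 in differentiated cells (Ccl5 with 150 UMIs in BMT and 0 in BMT + T cells) and Ccl20 in KC_Five cells (35 and 5 UMIs). Past 2-fold higher, beside Cxcl9, were Ccl1 (5 and 83 UMIs) and Ccl8 (7 and 62 UMIs) in follicular cells and Ccl5 in KC_Five cells (0 and 20 UMIs).

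Cxcl14, made by resting epithelium and an attractant of monocytes and dendritic cell precursors, lies at chr13:56288643-56296811. Its level over all keratinocytes was 5.33 in BMT (13376 UMIs) and 3.43 in BMT + T cells (8059 UMIs). The log2 ratio of summed UMIs was -0.57, with an interval of -0.61 to -0.53. It was lower in BMT + T cells in basal (6.90 and 4.01), differentiated (1.13 and 0.490), KC_Four (4.62 and 3.00) and KC_Five cells (6.27 and 4.28). In follicular cells, marked by Krt79 and Krt17, the levels were 3.29 and 3.49, and the log2 interval of -0.03 to 0.26 includes 0. In each library basal and KC_Five cells were the highest and differentiated cells the lowest.

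Ccl27a (CTACK, a keratinocyte ligand of Ccr10 on skin-homing T cells) has near-identical copies in the mouse genome, so its counts are uncertain. Over all keratinocytes it was at 3.16 (7259 UMIs) and 2.17 (4610 UMIs). Basal cells held 3.50 and 1.86, and differentiated cells 2.69 and 1.35. Follicular cells were the highest cluster and went the other way (5.06 and 6.97), with a log2 ratio of sums of 0.47 and an interval of 0.35 to 0.58. KC_Four (0.956 and 0.625) and KC_Five (0.836 and 0.564) were the lowest.

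Cxcl9 was rare in keratinocytes, at 0.0455 UMIs per 10000 in BMT (152 UMIs in 23 cells, 0.811% of cells) and 0.331 in BMT + T cells (1036 UMIs in 71 cells, 2.74%); thinned to 2000 UMIs the shares were 0.414% and 1.44%. The log2 difference of means was 1.57 with the pseudocount of 0.1, and the log2 ratio of sums was 2.93 (interval 2.68 to 3.18). The level was higher in all 5 clusters, from 0.0358 to 0.310 in basal cells and from 0.0391 to 1.05 in KC_Four, although in follicular cells the share with a UMI was 2.52% in BMT and 1.54% in BMT + T cells. The KC_Four levels came from 2 of 225 cells in BMT and 6 of 150 in BMT + T cells. Few cells carried it: the top 5 held 61.8% of the UMIs in BMT and 53.8% in BMT + T cells.

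The cells with Cxcl9 UMIs held the keratinocyte genes: Krt14 was found in 100% of the 23 and of the 71 cells, and in 99.5% and 99.4% of the others. The leukocyte gene Ptprc and the myeloid genes Lyz2 and Tyrobp were at 0 in all of them. Cd74, the MHC class II invariant chain, was found in 43.5% and 69.0% of these cells, against 5.58% and 16.7% of the other keratinocytes. H2-Aa was found in 34.8% and 66.2%, against 3.23% and 12.3%. Cxcl9 cells were deeper, at medians of 12605 and 10818 UMIs against 8866 and 8760. Leaving out cells with Ptprc, Lyz2 or Tyrobp left the log2 difference at 1.57; leaving out those with Cd74 as well brought it to 0.15 (levels of 0.0308 and 0.0456). These 2 settings were chosen after seeing the data. The second left 88 of 152 Cxcl9 UMIs in BMT and 88 of 1036 in BMT + T cells. It thus removed most of what was compared, and the origin of the Cxcl9 UMIs was not tested.

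Among the other members in keratinocytes, Cxcl16 was at 0.437 and 0.424 and Ccl20, the Ccr6 ligand, at 0.144 and 0.127 in 134 cells in all. Ccl8 had 40 UMIs in 8 cells of BMT and 249 in 30 cells of BMT + T cells. Of these 30 cells 90.0% carried Ptprc, Lyz2, Cd74 or Tyrobp, against 17.5% of the other cells of that library. With Cd74 taken off the list the shares were 3.33% and 0.469%, so the 90.0% rests mainly on Cd74. Neutrophil-attracting Cxcl1 had 144 and 262 UMIs, and Cxcl2 5 and 171. Cxcl16 was above the filter, with a UMI in 27.4% and 26.3% of cells. The levels of Ccl20, Ccl8, Cxcl1 and Cxcl2 are under the filter or near it, and few cells carried them. Of the 23 receptors only Ackr3, a scavenger of Cxcl12, reached 1 in a keratinocyte cluster, at 1.14 and 1.03 in basal cells.

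**Figure D4:**
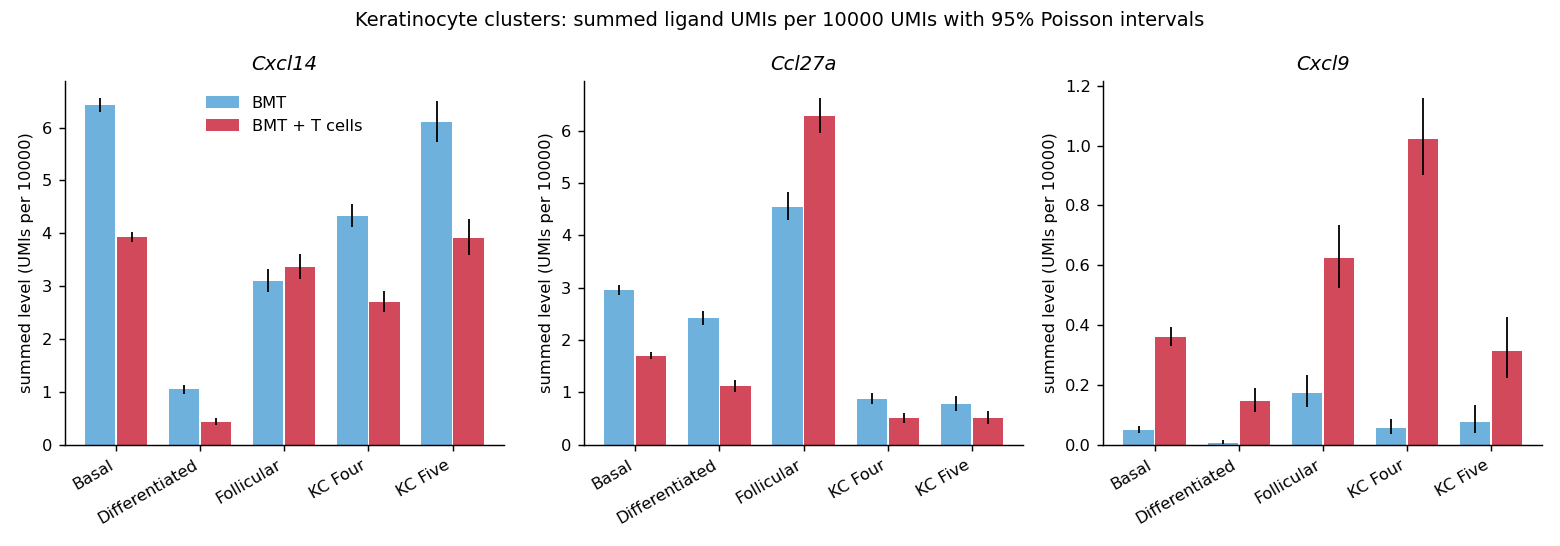
Summed level (y axis, UMIs of the gene per 10000 UMIs of the cluster, with exact 95% Poisson intervals for counting error) of Cxcl14, Ccl27a and Cxcl9 in 5 keratinocyte clusters (x axis) in the BMT and BMT + T cells libraries. Cxcl14 and Ccl27a bars are lower in BMT + T cells in every cluster other than follicular, and Cxcl9 bars are higher in all 5.

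In the host CD11b+MHCII+ library, whose clusters carry numbers and no names, 7 of the 25 listed members reached 1 UMI per 10000 in a cluster of at least 20 cells. There is 1 library and so no test. Xcl1 (lymphotactin, made by activated T and natural killer cells, with Xcr1 on dendritic cells as receptor) stood in cluster 6 at 21.8, with 381 UMIs in 22 of 23 cells; the other clusters held 0 to 0.0461. Markers of T cells summed to 139 UMIs per 10000 in cluster 6, with Cd8a the only 1 of 6 at 0, and to 0.153 to 1.54 elsewhere. Cluster 5 held Cxcl14 at 1.43, Ccl27a at 1.94 and Ccl20 at 1.44, the last from 195 UMIs in 4 cells; it also held keratinocyte markers at 349 UMIs per 10000.

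Cxcl16 was highest in host cluster 4 (5.35), followed by cluster 2 (3.08), and was at 0.856 and 0.778 in clusters 1 and 3. Cluster 4 also had the migrating markers Ccr7, Cd83 and Nr4a3 at a sum of 16.8. Cxcl9 was at 1.70 in cluster 4, from 42 UMIs in 16 of 90 cells, and at 0.901 among the 57 cells of it inside the study's cell filter. In cluster 2 it was at 0.988, from 10 UMIs in 5 cells, and at 0.0351 inside the filter. Ccl5 reached 1.18 in cluster 2, from 229 UMIs in 3 cells. With the filter applied, 6 members reached 1.

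**Figure D5:**
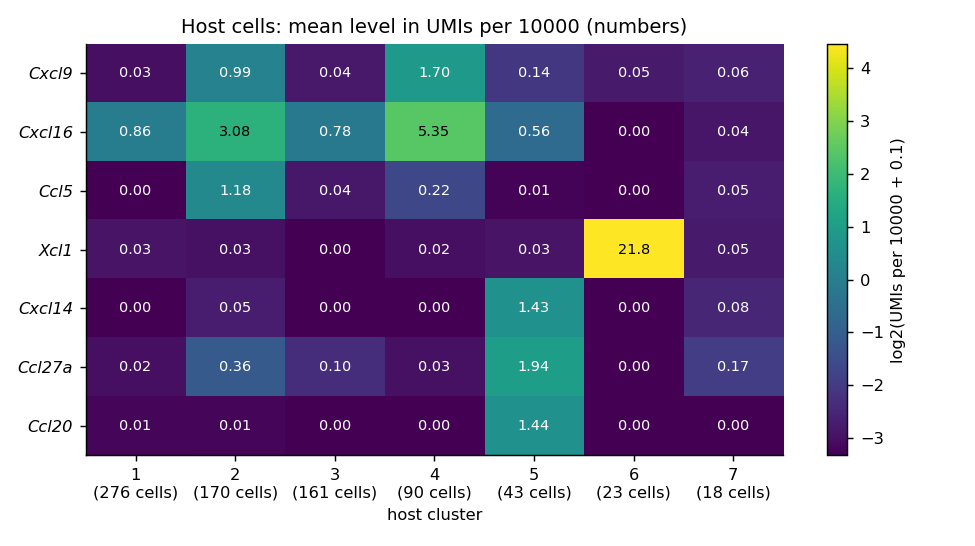
Mean level in UMIs per 10000 (numbers in the cells; the colour is log2 of that level plus 0.1) of 7 ligands (rows) in 7 host clusters (columns, with cell counts). Xcl1 is at 21.8 in cluster 6, Cxcl14, Ccl27a and Ccl20 are highest in cluster 5, and Cxcl16 and Cxcl9 in cluster 4.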

How the data were processed

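Donor CD11b+MHCII+ cells (4 libraries), CD45neg keratinocytes (2) and host CD11b+MHCII+ cells (1) were analysed, grouped by treatment label. The authors aligned reads with kallisto and bustools (build GRCm38 in the submitters' processing notes; annotation not given in the sources used here), and with Seurat removed cells under 500 genes or over 20% mitochondrial reads, removed doublets with DoubletFinder and named clusters from markers; no doublet caller was run here. Each cell was deposited as the natural log of 1 plus UMIs per 10000, which the authors computed, beside a deposited percent of mitochondrial reads. Values were turned back into whole UMIs (100% of values within 0.001), and cells were averaged as UMIs per 10000 by library and cluster of at least 20 cells. Of the donor cells' UMIs, the 15155 genes of the donor table account for 91.3% (median over cells), and the scaling to 10000 refers to all UMIs of a cell.

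Comparisons used limma 3.58.1 (R 4.3.3; trend and robust prior) on log2(mean + 0.1), for genes averaging at least 0.1, with all donor clusters in 1 fit; a fold change on this scale understates the change of low genes. The test was also run on simulated data with planted changes, and the outcome is not given here. For the comparison of labels that simulation gave all libraries the same mean apart from planted changes and noise. It therefore cannot show how the test fares with the differences between libraries seen here. Keratinocyte and host libraries gave values with exact Poisson intervals. Intervals and floors (3 counts) cover counting error only. Members, receptor list and markers, and the rule naming genes that reach 1 UMI per 10000, were chosen with earlier results of these data known. Positions and promoters come from RefSeq on GRCm38.p6. Alternatives were other pseudocounts (0.01 and 1), no filter, 50 cells, the study's cell filter, deposited log means, voom, a term for the name pair, and each library left out. Tools were Python 3.11.15, NumPy 2.4.6, SciPy 1.17.1 and pandas 2.3.3.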

Additional observations from a re-analysis of the deposited data

Results flagged for a closer look

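Ccl27a in keratinocytes moved in opposite directions in different clusters between the labels. In follicular cells it was higher in BMT + T cells, with a log2 difference of 0.45, while in basal cells it was lower, with a difference of -0.88, and in differentiated cells lower, with a difference of -0.95. There is 1 library per label, so the difference between the clusters was not tested, and the near-identical copies of Ccl27a leave its counts uncertain.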

How the results depend on the processing

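The counts of called ligand genes depended on the setting as follows. In ISG monocytes against Mono the count of 1 became 0 with means of the deposited log values and 3 with voom on UMI sums, and was 0 to 1 when each library was left out in turn. In Mrc1+ macrophages against Mono the count of 0 became 1 under the study's cell filter and 1 with voom, and was 0 to 1 over the left-out libraries. In resident mLCs against Mrc1+ macrophages the count of 7 became 3 with a pseudocount of 1 and 0 with means of the deposited log values, which shrink fold changes by construction. For BMT + T cells against BMT the count of 0 became 4 with the name pair as a term (1.92% of all genes were called), where each estimate is the difference from BMT replicate 3 alone and its error comes from BMT replicates 1 and 2 only, and was 0 to 3 over the left-out libraries. In keratinocytes the count of 1 became 0 with a pseudocount of 1 and 0 with deposited log means, beside 0.0258% of all genes past 2-fold higher in either. It was also 0 without cells holding Ptprc, Lyz2, Cd74 or Tyrobp, a setting that removed most Cxcl9 UMIs of BMT + T cells. In 45 other settings these counts stayed within 1.5 times of their value. The cause was not tested where none is named. Where no share over all genes stands beside a count, here or above, that count does not show whether members moved apart from all genes.

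Some single genes changed sign. In ISG monocytes against Mono, Cxcl9 (0.04) was -0.15 with a pseudocount of 0.01, -0.014 with at least 50 cells, -0.36 with voom and -0.48 to 0.44 over the left-out libraries, and Ccl12 (-0.31) was -0.55 to 0.056. In Mrc1+ macrophages against Mono, Ccl3 (0.51) was -0.028 with deposited log means and -0.015 to 0.87 over the left-out libraries, Ccl4 (-0.15) was -0.72 to 0.32, and Ccl9 (0.30) was -0.30 with log means, -0.15 under the study's filter and -0.24 to 0.73 over left-out libraries. By label, pooling all cells of a library gave -0.15 for Ccl12 (1.03), -0.37 for Ccl8 (0.13) and -0.45 for Ccl9 (0.12); left-out libraries gave -0.27 to 0.87 for Ccl8, -0.060 to 0.34 for Ccl9 and -1.61 to 0.28 for Cxcl9 (-0.41). With the name pair as a term, and against BMT replicate 3 only, Cxcl9 was 1.98 and Cxcl16 (-0.55) was 0.11. No paired analysis was possible because the donor labels share fewer than 2 replicate numbers; the term above pairs libraries by their names alone. Depth limits the rare ligands: 10 donor members were found in over 10% of the cells of a library, and 5 after thinning to 2000 UMIs.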
